A study of Schizosaccharomyces pombe with 56 samples.

Results

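The genes described here encode 8 molecular chaperones of fission yeast (Schizosaccharomyces pombe): the cytosolic Hsp70 proteins Ssa1 and Ssa2, Hsp90, the disaggregase Hsp104, the small heat shock protein Hsp16, the ribosome-associated Hsp70 Sks2, the endoplasmic reticulum (ER) Hsp70 Bip1 and the mitochondrial Hsp60 chaperonin Mcp60. A region of histone H3 lysine 9 dimethylation (H3K9me2) belonged to a gene when it overlapped the annotated gene body by at least 1 bp. By this rule 7 of the 2192 regions in the authors' deposited table belonged to the 8 genes, 1 region each for 7 genes, and hsp16 had none. The RefSeq products of these genes name heat shock proteins or chaperones for all but mcp60, which is listed there as protein Mcp60. Of the 8 genes 5 are cytosolic, and the ribosome-bound, ER and mitochondrial classes hold 1 gene each, so classes are set side by side gene by gene.

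H3K9me2 was measured by chromatin immunoprecipitation and sequencing (ChIP-seq) in a series of 56 libraries, 24 of them H3K9me2 immunoprecipitations. The groups used here are wild-type cells of strain 975 h+ after 24 h in Edinburgh minimal medium without nitrogen, which brings fission yeast into quiescence, and the same strain in nitrogen-containing minimal medium at 0 h, before the shift. Both groups carry no deletion and were precipitated with the same antibody. The labels list 6 wild-type H3K9me2 libraries at each of these times, 4 of them with an input library. Nothing in the labels says whether the 6 came from separate cultures. The clr4D, ago1D, 1 h and H3K9me3 libraries were not analysed here.

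Chaperones bind unfolded or newly made proteins. Hsp70 proteins bind short hydrophobic stretches in a cycle of ATP hydrolysis that J-domain (Hsp40) partners start and nucleotide exchange factors end. Hsp90 acts later, on proteins close to their folded state, with co-chaperones that load clients and time its ATP cycle. Hsp60 chaperonins enclose proteins in a chamber, Hsp104 pulls proteins out of aggregates, and small heat shock proteins hold unfolded proteins without using ATP. In fission yeast H3K9 methylation is deposited by Clr4 and is best known for silent heterochromatin at centromeres, telomeres and the mating-type locus.

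The authors' deposited table gives 1 mean of normalised reads per region and time, and no value per library. Its means were decomposed into whole reads above the table minimum of 0.77 normalised reads, assuming 5 libraries per time where the labels list 6. This gave signal in 3 libraries at 24 h, called A, B and C here, and in 2 libraries at 0 h, called D and E. The other 2 libraries at 24 h and 3 at 0 h held no recovered signal in any resolved region. Of the 2192 regions, 2175 could be resolved for 24 h and 2177 for 0 h. Over all resolved regions the recovered reads numbered 47317 in A, 215470 in B and 18288 in C, against 30566 in D and 47571 in E, so B was the deepest in signal by far. Reads are given as recovered, 1 read being worth 1.00, 0.798 and 0.744 normalised reads in A, B and C. Total sequencing depth is not given in the tables.

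H3K9me2 was higher at 24 h over 7 of the 8 chaperone genes and lower over none, at the authors' false discovery rate (FDR) threshold of 0.05. Among all 5113 nuclear protein-coding genes, 10.5% lay under a region that was higher at 24 h and 54.8% under any listed region. Another 807 regions carry a p of 1 in the authors' deposited table and took no part in its FDR. Of the 1385 regions with a p below 1, 32.7% were higher and 0.722% lower at 24 h. The 7 chaperone regions all stood at the table minimum at 0 h, as did 88.3% of the 453 higher regions and 52.6% of all listed regions. Their median log2 change in the authors' deposited table was 6.57, beside 4.75 over the 453 higher regions and 1.72 over the 1385 tested ones. For the 7 this is a difference from the minimum and no measured fold, and many tested regions had 0 h signal. Scaling both times to the same median over the tested regions shifted every change by 1.72, and the median of the 7 relative to that shift was 4.85. At 24 h their median level per kb was 44.0 normalised reads, beside 22.2 over the higher regions. Because 0 h stood at the minimum, each fold below is a lower bound, computed with 3 counts in every library (2.31 normalised reads) in place of the 0 h mean. It bounds the deposited values only, since the treatment of input reads is not given. The median of these bounds over the 7 was 31.8-fold, or 4.99 on the log2 scale.

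**Figure D1:**
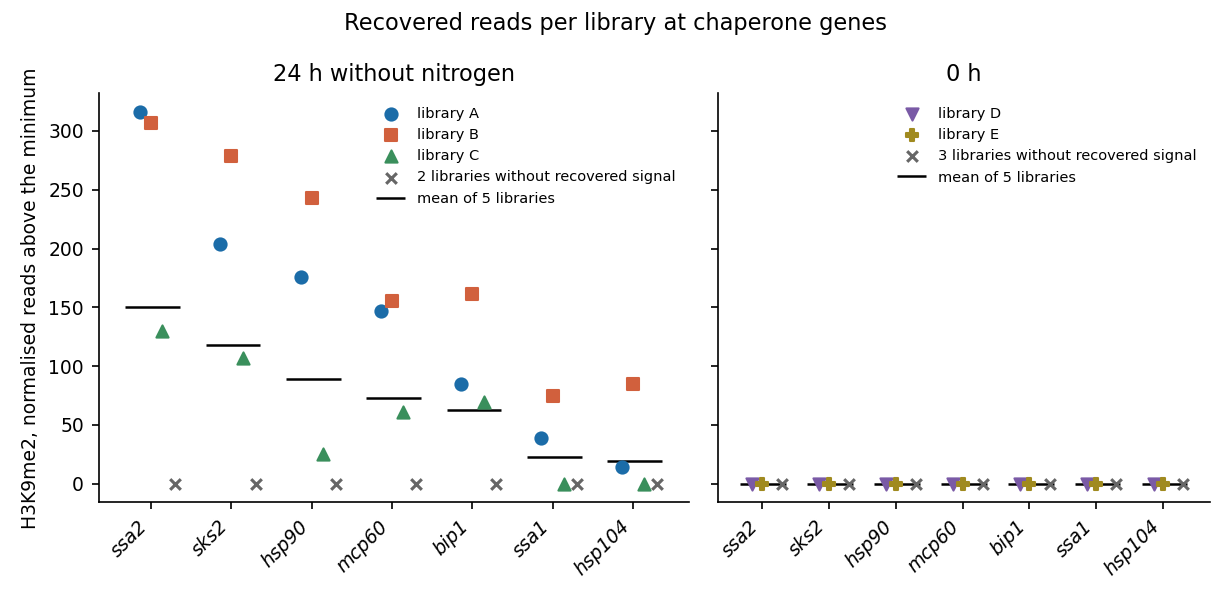
H3K9me2 over each chaperone gene in the recovered libraries, in normalised reads above the minimum, with 24 h libraries left of 0 h libraries. Points are single libraries of the 5 assumed per time, and lines are their means. All 7 genes with a region have signal in libraries A and B at 24 h, ssa1 and hsp104 have none in C, and no library at 0 h rises above the minimum.

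The cytosolic pair was far apart in level. The ssa2 gene (SPCC1739.13, ASM294v2 chromosome III 2057043 to 2059331, plus strand) encodes a cytosolic Hsp70, and its region ran from 2057414 to 2059178. The ssa2 region held 316, 384 and 175 recovered reads in 24 h libraries A, B and C and 0 in the other 2, against 0 in all 5 libraries at 0 h. All 3 libraries with signal at 24 h were thus above every 0 h library, and the groups overlapped only through the 2 empty libraries at 24 h. The authors' deposited mean was 151 normalised reads at 24 h, against 0.77 at 0 h, at least 65.6-fold higher (FDR 0.000119). This level ranked 24 among the 2192 regions.

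The other cytosolic Hsp70 gene, ssa1 (SPAC13G7.02c, chromosome I 2295580 to 2297964, minus strand), had a region from 2295890 to 2297365. Its recovered reads were 39 in A, 93 in B and 0 in C and in the other 2 libraries at 24 h, against 0 in all 5 at 0 h. Here 2 libraries stood above the 0 h group and 3 stood level with it. The deposited means of the authors were 23.4 normalised reads at 24 h, against 0.77 at 0 h, at least 10.1-fold higher (FDR 0.00524). Without library B the 24 h mean was 10.5. Per kb of region the ssa1 mean came to 18.5% of the ssa2 mean, with 14.8% in A, 29.0% in B and 0% in C.

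The coding sequences of ssa2 and ssa1 were identical at 82.9% of 1935 bases, so their reads could in part be shared. The longest identical run was 56 bases, and it lies inside both regions. It is shown within 120 bases of each gene's coding strand (RefSeq ASM294v3), where the 7 capitals in each mark bases that differ from the other gene:
ssa2 coding window (chrIII:2058534-2058653, plus strand): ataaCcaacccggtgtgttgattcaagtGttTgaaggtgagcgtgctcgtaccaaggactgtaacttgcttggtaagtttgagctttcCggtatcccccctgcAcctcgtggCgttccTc
ssa1 coding window (chrI:2296343-2296462, minus strand): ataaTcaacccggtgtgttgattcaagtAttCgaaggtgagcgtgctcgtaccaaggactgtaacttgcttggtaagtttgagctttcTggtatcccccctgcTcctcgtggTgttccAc
Across the ssa2 region 7 of 1716 windows of 50 bases occurred more than once in the genome, or 0.408%, and across the ssa1 region 7 of 1427, or 0.491%. No window of 100 bases did in any of the 7 regions. The Hsp70 genes of the other compartments were farther from ssa2, with 68.3% identity for sks2 and 67.5% for bip1, and none of their 50-base windows was repeated.

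The stretches before both genes also hold a heat shock element, the inverted array of GAA units that heat shock factor binds. The 100 bases before each annotated transcript start are shown 5′ to 3′ from RefSeq ASM294v3, with the element in capitals:
ssa2 upstream (chrIII:2056943-2057042, plus strand): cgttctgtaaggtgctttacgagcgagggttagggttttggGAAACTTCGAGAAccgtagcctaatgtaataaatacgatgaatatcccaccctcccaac
ssa1 upstream (chrI:2297965-2298064, minus strand): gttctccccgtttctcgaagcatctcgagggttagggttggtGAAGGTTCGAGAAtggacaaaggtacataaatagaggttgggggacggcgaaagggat
The motif searched was GAANNTTCNNGAA or TTCNNGAANNTTC, each the other's reverse complement, in the 250 bases before each transcript start. Of the 5113 protein-coding genes 21 held it, or 0.411%, and of the 8 chaperone genes ssa1 and ssa2 did. Only exact matches were counted, so a gene without one may still hold an imperfect or more distant element. The element began 59 bases before the ssa2 start and 58 bases before the ssa1 start. The H3K9me2 regions did not reach it: they began 430 bases after the start of the element at ssa2 and 657 bases after it at ssa1.

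The Hsp90 gene, hsp90 (SPAC926.04c, chromosome I 3888558 to 3891139, minus strand), encodes the cytosolic ATPase that completes the folding of kinases and other signalling proteins. Its region, 3888797 to 3890818, held 176, 304 and 34 recovered reads in A, B and C and 0 in the other 2 libraries at 24 h, against 0 in all 5 at 0 h. The share of hsp90 signal from library C was 5.7%, against 17.3% for ssa2. The authors' deposited mean was 89.6 normalised reads at 24 h, against 0.77 at 0 h, at least 38.8-fold higher (FDR 0.00038). Without library B the 24 h mean was 51.1.

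The disaggregase gene, hsp104 (SPBC16D10.08c, chromosome II 3612265 to 3615269, minus strand), was the lowest of the 7. Its region, 3612441 to 3614192, held 14 reads in A, 106 in B and 0 in C and in the other 2 libraries at 24 h, against 0 in all 5 at 0 h. Library B carried 85.8% of this signal. The authors' deposited mean was 20.5 normalised reads at 24 h, against 0.77 at 0 h, at least 8.88-fold higher (FDR 0.00693). Without B the mean was 4.26 and the bound at least 1.85-fold, so the size of the hsp104 value rests on that library.

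No region was listed over hsp16 (SPBC3E7.02c, chromosome II 2660139 to 2660992, minus strand), the gene of the small heat shock protein. The nearest region lay 1366 bp away, at 2654231 to 2658773 over fab1 and prp17, and had a p of 1. The absence from the list gives no level for hsp16. Its gene body is 854 bp long, the shortest of the 8, and of the 846 protein-coding genes below 1000 bp 24.5% lay under any listed region, against 72.8% of the 1275 genes from 2000 to 3000 bp. The part of gene length in the missing region was not tested.

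The ribosome-bound Hsp70 gene, sks2 (SPBC1709.05, chromosome II 1106396 to 1108511, plus strand), encodes the chaperone that meets nascent chains as they leave the ribosome. Its region, 1106488 to 1108342, held 204, 349 and 144 recovered reads in A, B and C and 0 in the other 2 libraries at 24 h, against 0 in all 5 at 0 h. The gene stood second to ssa2 in each of A, B and C, also per kb of region. The authors' deposited mean was 119 normalised reads at 24 h, against 0.77 at 0 h, at least 51.4-fold higher (FDR 0.000159). Without B the 24 h mean was 78.6.

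In the ER class, bip1 (SPAC22A12.15c, chromosome I 1182693 to 1185485, minus strand) encodes BiP, the Hsp70 that binds proteins entering the secretory pathway. Its region, 1182901 to 1185283, held 85, 202 and 93 recovered reads in A, B and C and 0 in the other 2 libraries at 24 h, against 0 in all 5 at 0 h. The authors' deposited mean was 63.9 normalised reads at 24 h, against 0.77 at 0 h, at least 27.7-fold higher (FDR 0.000635). Without B the 24 h mean was 39.3. The bip1 region was the longest of the 7, at 2383 bp, and 82.8% of it lay in coding sequence, the lowest share of the 7.

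In the mitochondrial class, mcp60 (SPAC12G12.04, chromosome I 339766 to 342097, minus strand) encodes the Hsp60 chaperonin of the matrix. Its region, 340105 to 341772, held 147, 194 and 82 recovered reads in A, B and C and 0 in the other 2 libraries at 24 h, against 0 in all 5 at 0 h. These are the counts closest to a fixed share of ssa2 in all 3 libraries, at 49.2%, 53.5% and 49.6% of the ssa2 value per kb. The authors' deposited mean was 73.4 normalised reads at 24 h, against 0.77 at 0 h, at least 31.8-fold higher (FDR 0.000485).

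Across compartments the order at 24 h, in the authors' deposited mean per kb of region, was ssa2 at 85.7, sks2 at 64.0, hsp90 at 44.3, mcp60 at 44.0, bip1 at 26.8, ssa1 at 15.9 and hsp104 at 11.7 normalised reads per kb. The cytosolic genes thus held both the highest and the 2 lowest places, and the ribosome-bound, mitochondrial and ER genes lay between them. At 0 h all 7 stood at the minimum, so no order can be given there. Neighbours in the 24 h order were compared within each library by the ratio of their reads per kb. Exact binomial 95% intervals cover counting error only, and only if recovered reads are plain counts with no input subtracted.

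The ratio of ssa2 to sks2 was 1.63 in A (interval 1.36 to 1.95), 1.16 in B (0.998 to 1.34) and 1.28 in C (1.02 to 1.60). Thus ssa2 was above sks2 beyond counting error in A and C, and in B the interval reached just below 1. The ratio of sks2 to hsp90 was 1.26 in A (1.03 to 1.55), 1.25 in B (1.07 to 1.46) and 4.62 in C (3.16 to 6.92), so sks2 was higher in each of the 3. The ratio of hsp90 to mcp60 was 0.988 in A (0.789 to 1.24), 1.29 in B (1.08 to 1.56) and 0.342 in C (0.222 to 0.516). The order of hsp90 and mcp60 was therefore opposite in B and C, and these neighbours are not separable. For mcp60 over bip1 the ratio was 2.47 in A (1.88 to 3.27), 1.37 in B (1.12 to 1.68) and 1.26 in C (0.925 to 1.71), in the same direction throughout and within counting error in C.

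At the low end, the ratio of bip1 to ssa1 was 1.35 in A (0.914 to 2.03) and 1.35 in B (1.05 to 1.74). In C bip1 had 93 reads and ssa1 none. The ratio of ssa1 to hsp104 was 3.31 in A (1.76 to 6.59) and 1.04 in B (0.78 to 1.39), and neither had a read above the minimum in C. These neighbours were thus separated in library A and not in B. The spread between libraries was wide for every member: over the 5 libraries assumed at 24 h the values above the minimum were 151 ± 156 normalised reads for ssa2 and 19.7 ± 36.8 for hsp104 (SD, n = 5).

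A fit across regions with this spread gave no call. limma on log2(recovered value + 1), with 5 libraries per time and empty libraries at 0, called 0 of 2174 regions at a Benjamini-Hochberg adjusted p under 0.05, or 0.0%, where the authors' FDR gave 453 higher and 10 lower. Without adjustment, at a p under 0.05, limma placed 73 regions higher, or 3.36%. The log2 change in this fit was 4.72 ± 1.81 for ssa2 and 4.51 ± 1.73 for sks2 (SE), with limma p-values of 0.0242 and 0.0240 and an adjusted p of 0.611 for both. It was 4.09 ± 1.57 for mcp60, 4.02 ± 1.61 for hsp90 and 3.98 ± 1.53 for bip1 (SE), with limma p-values of 0.0248, 0.0295 and 0.0249. The fit gave 2.31 ± 1.56 for ssa1 and 2.07 ± 1.53 for hsp104 (SE), with limma p-values of 0.167 and 0.203. The adjusted p was 0.611 for each of the 7. The difference between 24 h and 0 h thus exceeded the authors' estimate of error for all 7 genes, and did not pass the limma fit once adjusted. The spread in that fit includes the 2 libraries at 24 h and 3 at 0 h that were set to 0 in every region. These zeros widen the spread wherever other libraries hold signal. The lack of limma calls therefore cannot decide whether the difference holds, and does not weigh against the authors' FDR. No region of any kind passed, with a smallest limma adjusted p of 0.611, so the fit cannot set the 7 genes apart from other regions.

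**Figure D2:**
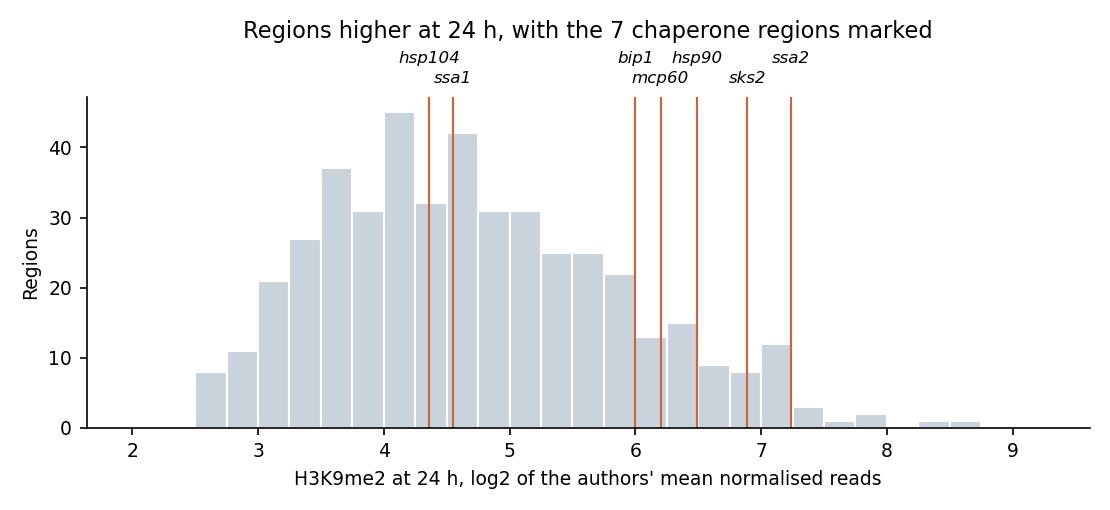
Number of regions (y axis) by 24 h level, as log2 of the authors' mean normalised reads (x axis), over the 453 regions higher at 24 h, with lines at the 7 chaperone regions. These run from hsp104 at 20.5 normalised reads to ssa2 at 151.

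All 7 regions lay inside the transcribed unit of a single protein-coding gene. They began 92 bp (sks2) to 1077 bp (hsp104) downstream of the annotated transcript start and ended 153 bp (ssa2) to 339 bp (mcp60) before its end. The median distance from the start was 325 bp, beside 409 bp over the 538 pairs of a gene and a higher region. None covered its transcript start. Of the 538 pairs 5.39% covered the start, and 1.68% of the 357 pairs whose region met only 1 coding gene did. Between 82.8% (bip1) and 100% of each region was coding sequence, for 4 of the genes 100%. From 64.5% of the coding sequence (hsp104) to 99.0% (bip1) was covered, so the hsp104 region left out the 5′ part of the gene. The position in the gene was thus shared by the members, and it was also that of most regions higher at 24 h: 94.7% of the single-gene pairs lay wholly inside the gene.

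**Figure D3:**
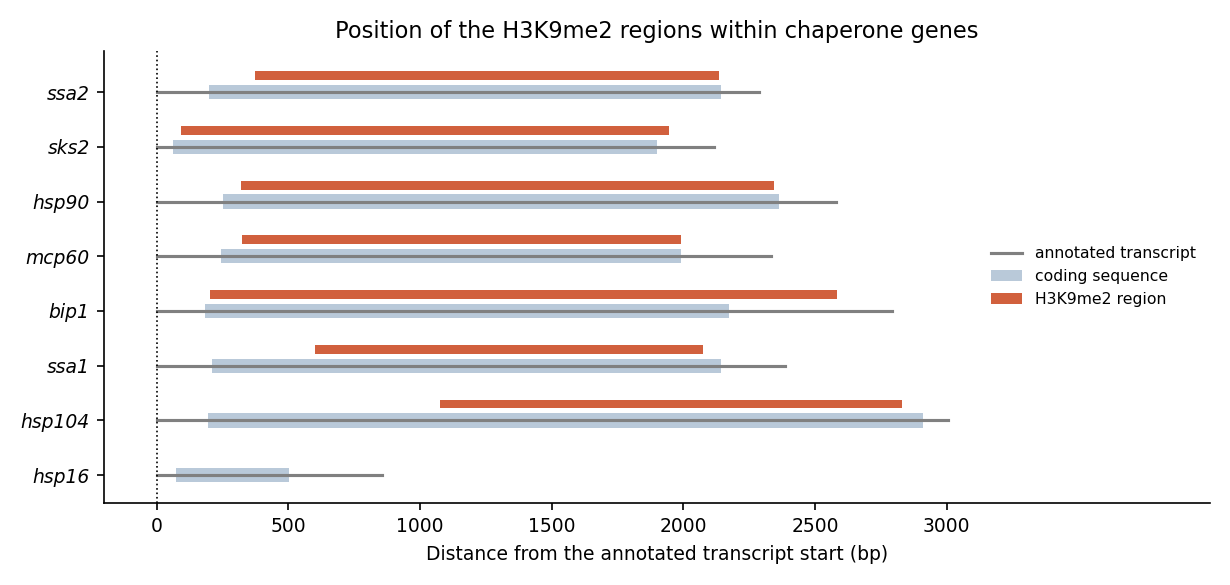
Position of each H3K9me2 region along its gene, in bp from the annotated transcript start, with the transcript as a line, the coding sequence as a pale bar and the region as a dark bar. Each of the 7 regions starts after the transcript start and stops before the transcript end, and hsp16 has no region.

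The gap from each of the 7 regions to the next listed one was 1145 bp (left of ssa1) to 13115 bp (left of hsp90). Gaps between other listed regions were not measured, so these values do not show the 7 as isolated. The ssa2 region had a region with a p of 1 at 5468 bp on the left and one at 1309 bp on the right that did not pass, with 10.8 normalised reads at 24 h against 21.0 at 0 h in the authors' deposited table. The next region beside bip1, at 1286 bp on the right, was higher at 24 h, with 46.1 normalised reads against 0.77 at 0 h. The G+C content of the 7 regions was 40.7% (bip1) to 50.2% (ssa2), beside a median of 42.7% over the higher regions, 40.2% over all listed regions and 36.1% over the chromosomes. The part of base composition in the levels was not tested.

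The regions whose libraries looked most like ssa2 were found by Euclidean distance of log2(recovered value + 1) over the 5 libraries with signal. They lay over the ammonium transporter gene amt1 (distance 0.29), pyk1 (0.41) and lsd90 (0.47). The amt1 region on chromosome III lay 9901 bp from the ssa2 region and held 319, 315 and 182 reads in A, B and C, with 0 in D and E. The pyk1 region held 273, 426 and 219 reads in A, B and C, also with 0 in D and E. The pyk1 gene encodes pyruvate kinase, the last enzyme of glycolysis. Among chaperone genes sks2 was nearest to ssa2, at 0.70, then mcp60 at 1.83, bip1 at 2.28 and hsp90 at 2.49. The distances of ssa1 (7.91) and hsp104 (8.50) were larger, both having no read in C.

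The other genes of the folding machinery were taken from a list of 53 symbols, of which 51 matched, giving 50 genes and 42 besides the 8 above. Of these 42, 6 lay under a region higher at 24 h, or 14.3%, beside 10.5% of all protein-coding genes. None lay under a lower region, 12 had a tested region that missed the threshold, 11 had a region with a p of 1, and 13 had none. With the 8 genes included, 13 of 50 were higher, or 26.0%. In each of the 13, A and B held signal at 24 h and no library did at 0 h. Most higher regions were alike in this: of 451 resolved ones, 440 held signal in A, 450 in B and 53 at 0 h.

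The 6 came from the cytosolic Hsp70, Hsp40, Hsp90 and ribosome-bound classes of the list. Their share of the 42, 14.3%, is near the 10.5% of all protein-coding genes. With the 8 genes included, 3 of 4, 2 of 3, 3 of 9 and 2 of 3 genes of these classes passed. In the same classes xdj1 did not pass, with 7.76 normalised reads at 24 h against 8.77 at 0 h. The genes cdc37 and wis2 lay under regions outside the authors' FDR, and fes1, cns1, sgt1 and git7 had no region. Among Hsp70 partners, pss1 encodes an Hsp110 exchange factor and held 92 and 195 reads in A and B and 0 in the other 3 libraries at 24 h, against 0 in all 5 at 0 h. The authors' deposited mean for pss1 was 50.3 normalised reads at 24 h, at least 21.8-fold above 0 h (FDR 0.00201). Of the J-domain proteins, psi1 held 76, 152 and 35 reads in A, B and C and 0 in the other 2 libraries at 24 h, against 0 in all 5 at 0 h, with a deposited mean of the authors of 45.5 at 24 h and a bound of at least 19.7-fold (FDR 0.0013). Without library B the 24 h means were 23.8 for pss1 and 26.3 for psi1. The other called J-domain gene, mas5, had an authors' deposited mean of 25.9 at 24 h and a bound of at least 11.2-fold (FDR 0.00468), and its mean was 14.3 without B. These partners stood above ssa1 in reads per kb, at 26.1 for pss1, 33.4 for psi1 and 23.7 for mas5, against 15.9 for ssa1.

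Of the Hsp90 co-chaperones, sti1 encodes the adaptor that hands clients from Hsp70 to Hsp90 and held 97, 193 and 45 reads in A, B and C and 0 in the other 2 libraries at 24 h, against 0 in all 5 at 0 h. The authors' deposited mean for sti1 was 57.7 normalised reads at 24 h, at least 25.0-fold above 0 h (FDR 0.000856), and 33.4 without library B. The p23 gene wos2 was close to the threshold, with an authors' deposited mean of 6.16 at 24 h, at least 2.67-fold higher (FDR 0.0459), and 7 and 25 reads in A and B. Without B the wos2 mean was 2.51 and its bound at least 1.09-fold. The aha1 region did not pass, with 18.7 at 24 h against 9.17 at 0 h in the authors' deposited table. At the ribosome, zuo1, the J-domain partner of Sks2, was higher, with an authors' deposited mean of 12.9 at 24 h and a bound of at least 5.6-fold (FDR 0.0124), and its mean was 6.76 without B. Its partner ssz1 did not pass. The authors' deposited means for ssz1 were 39.0 at 24 h, against 9.61 at 0 h (FDR 0.421), and the 0 h value came from 69 reads in library E alone.

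Outside the cytosol, mcp60 passed among 6 mitochondrial genes on the list and bip1 among 6 ER genes, 16.7% in each class. This is near the share over all protein-coding genes, 10.5%, and over those of 2000 to 3000 bp, 14.0%. The mitochondrial Hsp70 gene ssc1 stood at the threshold itself. It held 98, 219 and 87 reads in A, B and C and 0 in the other 2 libraries at 24 h, against 34 in E and 0 in the other 4 at 0 h. The authors' deposited means for ssc1 were 68.3 at 24 h, against 5.13 at 0 h, with a log2 change of 3.74 and an FDR of 0.05001. Its reads per kb at 24 h, 35.9, lay between those of mcp60 and bip1. The mitochondrial disaggregase gene hsp78 did not pass either, with 29.6 at 24 h against 6.42 at 0 h in the authors' deposited table (FDR 0.331), its 0 h value being 30 reads in library D alone. For the ER, calnexin (cnx1) and protein disulfide isomerase (pdi1) lay under regions with a p of 1.

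None of the 8 genes of the cytosolic chaperonin CCT passed, nor did any of 6 prefoldin genes. With 10.5% of all protein-coding genes under a higher region, and 8.04% of those below 1000 bp, counts of 0 in classes this small do not set them apart. For CCT, 5 regions had a p of 1 and 3 were tested without passing. Of these 3 only cct4 held recovered reads, and the cct7 and cct8 regions stood at the minimum at both times. The cct1 region stood at 47.6 normalised reads at 24 h, against 29.6 at 0 h, in the authors' deposited table, with 293 reads in B and 0 in A and C at 24 h, and 153 in D at 0 h. This region was 4428 bp long and also covered another coding gene, as the regions of 7 of the 8 CCT genes did. Of the prefoldin genes 5 had no region. The gene of heat shock factor, hsf1, lay under a region with a p of 1 that held 123 reads in B and none elsewhere. Of the 11 listed genes under a region with a p of 1, 10 had reads in library B alone at 24 h. Over all resolved regions, 84.2% of the 806 with a p of 1 had reads in B alone at 24 h, and 0 of the 451 higher ones did.

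**Figure D4:**
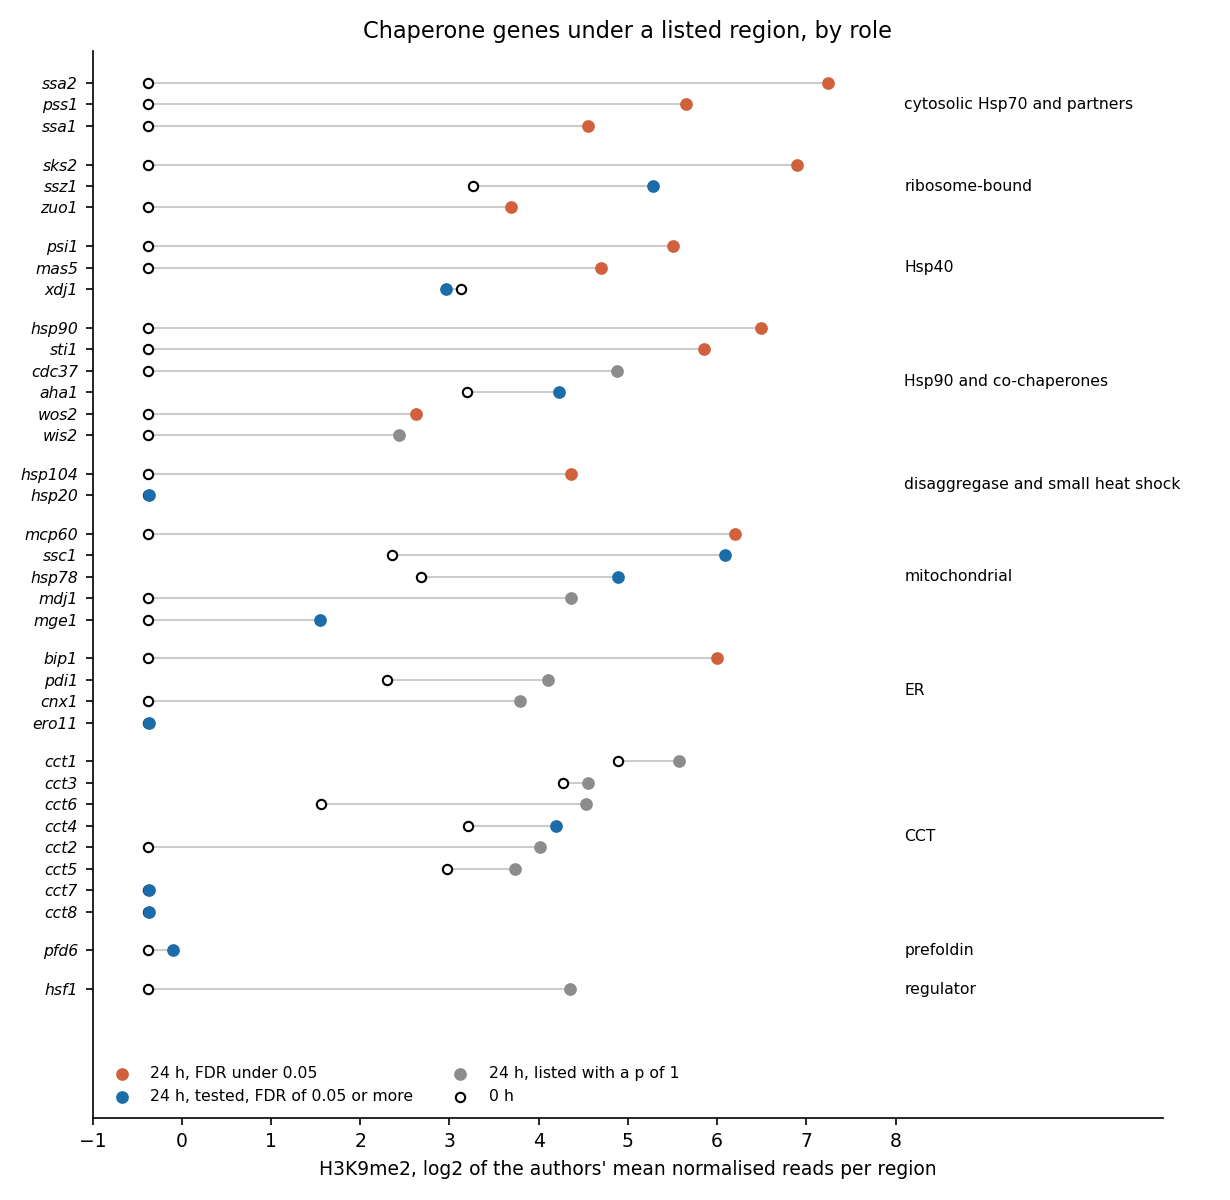
H3K9me2 over the 36 chaperone genes of the list with a region, by role, as log2 of the authors' mean normalised reads per region, with 24 h as filled and 0 h as open points. Filled colours give the authors' call. The 13 genes that passed stand at the minimum at 0 h, and none of them is a CCT, prefoldin or regulator gene.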

How the data were processed

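The chaperone genes and all gene lists were chosen with earlier results of these data known. Bowtie2 2.2.7, MACS2 2.1, DiffBind 1.16.3 and DESeq2 were used with build ASM294v2, per the submitters' processing notes. The treatment of input reads is not given in the sources used here. For each region the deposited table holds log2 means of normalised reads at either time and a log2 fold, 0 h minus 24 h, per the file headers. The sign of the fold was turned here. It also holds the deposited p-value and FDR of each region, which were described in place of a test on group means. Such means carry no SD or n. Whole reads per library were recovered from the means with an assumed 5 libraries per time, searched up to 600 normalised reads within a relative tolerance of 3e-14. The recovery was tested on simulated data, where the whole reads behind 300 of 300 means per time were recovered, and none of the shifted real means was resolved. Library letters tie to no replicate number. In R 4.3.3, limma 3.58.1 was run on log2(recovered value + 1) with its mean trend, with libraries without recovered signal at 0, and p-values were adjusted by Benjamini-Hochberg over 2174 regions. A fold on that scale understates changes of low regions. Its p-values measure only the spread between libraries, which may be technical. Intervals and the floor of 3 counts per library cover counting error only, with recovered reads taken as plain counts. At the minimum stood 151 regions at 24 h and 1154 at 0 h. If the authors subtracted input, recovered reads would be differences, and the intervals would be too narrow. A minimum may also hide reads in that case, so bounds hold for the deposited values.

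Gene models and sequences came from RefSeq ASM294v3, whose nuclear chromosome lengths equal the ends of the last deposited regions, and coordinates are those of that table, counted from 1. Named genes were all 8 chaperone genes, every gene of the wider list under a region with an FDR under 0.05, and the 3 regions nearest to ssa2. Other genes of the wider list that are named, and the motif, were chosen after their values were seen. Alternatives were another FDR threshold, overlap rule, scaling, floor, pseudocount and filter, and leaving out each library with signal.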

Additional observations from a re-analysis of the deposited data

Results flagged for a closer look

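All 36 listed chaperone genes with a region were screened at both times, which gave 43 groups of 5 recovered libraries with any signal. In 25 of them 1 library stood far from the others. The measure was the gap to the nearest library as a share of the whole range, with a limit of 0.71. By chance this limit flags about 1 group in 20 when the 5 values are independent and normally distributed. Here 2 values at 24 h and 3 at 0 h were set to 0 in every group, so that rate does not apply and the flags only describe. In 20 of the 25 groups 1 library alone was above 0, which fixes the share at 1.0. At 24 h these were wis2, mdj1, cnx1, pdi1, cct1, cct2, cct3, cct5, cct6, hsf1 and pfd6, in each of which the library was B. At 0 h they were ssz1, ssc1, cct5 and cct6 with library E, and hsp78, pdi1, cct1, cct3 and cct4 with library D. The other 5 were at 24 h. For hsp104 the share was 0.835, with 106 reads in B and 14 in A. For cdc37 it was 0.905, with 159 reads in B, 12 in A and 6 in C. For aha1 it was 0.929, with 105 reads in B and 8 in C, and for cct4 0.825, with 93 in B and 13 in A. For mge1 it was 0.92, with 10 reads in A and 1 in B.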

How the results depend on the processing

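The count of 7 chaperone genes under a region higher at 24 h was also 7 at an FDR under 0.01, with at least 50% of the region inside the gene and with genes extended by 500 bp. Leaving out a library was not counted for this result, since each of the 7 regions has reads in A and B and none at 0 h, so that 1 library less cannot bring its mean to the minimum. Without B the hsp104 mean was 4.26 normalised reads. The lowest 24 h mean of any higher region, 5.74, includes library B, so it sets no limit for a mean without B. The wider list, for which alternatives were chosen after seeing the data, gave 4 in place of 6 at an FDR under 0.01 and 6 under both other overlap rules. The median log2 change of the 7 regions was 7.11 with both times scaled to the same total, and 4.85 with the same median over tested regions. The log2 ratio of the 24 h total to the 0 h total was -0.54. limma called 0 regions with pseudocounts of 0.5 and 4, with a filter at a mean of 5 normalised reads and without any 1 library (0 to 0). Its unadjusted count of higher regions was 83, 60 and 44 under the first 3, and 2 without C, 3 without A, 24 without B, 42 without D and 49 without E, against 73 with all. The adjusted p of the 7 chaperone regions ran over 0.544 to 0.943. Their log2 changes stayed positive, from 0.98 for hsp104 to 5.32 for ssa2. Fold bounds moved with the floor by construction: for ssa2 197 with 1 count and 19.7 with 10 counts per library, for hsp104 26.6 and 2.66. Among the 13 listed genes that passed, leaving out B moved the level by more than 1.5 times for all but ssa2 and mcp60, and leaving out A or C moved none so far. No paired analysis was possible because the deposited means carry no replicate numbers. Depth per library is unknown and limits the low values most, and a gene without a listed region has no value at all.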

Other observations

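The 100 bases before ssa2 and before ssa1 also share the run CGAGGGTTAGGGTT, 14 bases long, which begins 77 bases before the ssa2 start and 75 bases before the ssa1 start. It was picked from these 2 genes, so both hold it by choice. Of the 5113 promoters of 250 bases only these 2 hold it, or 0.0391%, and this share is no background rate. On the wider list the heat shock element searched was also found 75 bases before the start of wis2, a cyclophilin co-chaperone of Hsp90, and 104 bases before the start of cnx1. Both genes lay under regions with a p of 1 in the authors' deposited table.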
